A study of Sus scrofa with 4 samples.

Results

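The genes examined here carry fatty acids through the liver cell, from uptake and binding through activation to acyl-CoA, oxidation in mitochondria and peroxisomes, and the handling of the acetyl-CoA that results. They were chosen by name as a list of 38 genes, of which 30 have an annotated probe set on the array, out of 6765 genes with a single annotated symbol. CD36, SLC27A2, SLC27A4, SLC27A5, EHHADH, PEX11A, ACOT12 and CREB3L3 were not analysed here. Each gene is represented by the probe set with the highest mean log2 signal over the 4 arrays, and all 42 probe sets of the 30 genes were examined where a gene has several. The livers came from male crossbred pigs, (German Landrace x Large White) x Pietrain, which entered the feeding period of 21 days at 4 weeks of age and were killed at 7 weeks, 2.5 h after a meal. The control pigs ate a basal diet low in carnitine, and the carnitine pigs ate the same diet with 500 mg L-carnitine added per kg. Each pool combined the RNA of 4 pigs, with 2 pools and thus 8 pigs per diet, and each pool was hybridized to a single Affymetrix porcine GeneChip. Differences between single pigs are therefore hidden, and the spread between the pools of a diet is the only error that the arrays give.

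Long-chain fatty acids are bound in the cytosol by fatty acid binding proteins and are joined to coenzyme A by acyl-CoA synthetases, some of which also act as transport proteins at the membrane. Carnitine carries the long-chain acyl groups across the inner mitochondrial membrane, where a repeated cycle of dehydrogenation, hydration, a further dehydrogenation and thiolysis removes acetyl-CoA units and passes electrons through the electron transfer flavoprotein to the respiratory chain. Peroxisomes shorten very long and branched chains, and the liver turns part of the acetyl-CoA into ketone bodies. In hepatocytes the nuclear receptor PPARA drives the transcription of many of these genes.

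Between the diets the genes of fatty acid oxidation showed small differences in both directions. Values are MAS5 signals, an intensity in arbitrary units, and a log2 fold change is the difference of the mean log2 signals, carnitine over control, given with its standard error (SE) and, where printed, its 95% confidence interval from limma. Of the 30 genes, 0 passed an adjusted p of 0.05 in limma, where 0.00417% of all probe sets were called higher and 0% lower. The one-factor analysis of variance, which the methods name among the study's general statistics, also passed 0 after adjustment. Without adjustment it called ECI2 higher and SCP2 lower, and the share of all probe sets that it called was not counted here. The study called its array genes at a 2-fold change. At 2-fold in the log2 means used here, 2 of the 30 (6.67%), SLC27A6 and VNN1, were higher and 0 were lower. Those shares were 8.03% and 7.92% for all probe sets, and 4.76% and 4.17% for the brightest of each gene. By limma at an unadjusted p below 0.05, 1 of the 30 was higher and 0 were lower, while 4.72% of all probe sets and 6.56% of the brightest probe sets of each gene were higher, and 3.93% and 3.99% were lower. The gene that was higher was SLC27A6. Log2 fold changes were above 0 for 16 of the 30 (53.3%) and below it for 14, against 48.6% above 0 over all probe sets and 49.1% over the brightest of each gene, and the median was 0.074 against -0.018. Both carnitine pools lay above both control pools for 5 genes (16.7%) and below them for 3 genes (10%). For all probe sets those shares were 19.2% and 20.4%, and for the brightest of each gene 21.5% and 21%, so that the pools of the diets were apart no more often among these genes than elsewhere on the array. The smallest two-sided p that an exact permutation test allows for 2 pools per diet is 0.333.

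The precision of the differences varied from gene to gene. For 16 of the 30 genes the 95% confidence interval lay within 2-fold in either direction, against 48.1% of the brightest probe sets of all genes. Most members are bright, and among the 28 above the median signal the share was 57.1%, against 64.3% of all such genes. The difference of the diets was greater than both differences between pools of the same diet for 5 genes (16.7%), namely SLC27A6, ECI2, ETFB, HSD17B4 and SCP2, against 26.3% of all probe sets and 28.7% of the brightest of each gene.

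**Figure D1:**
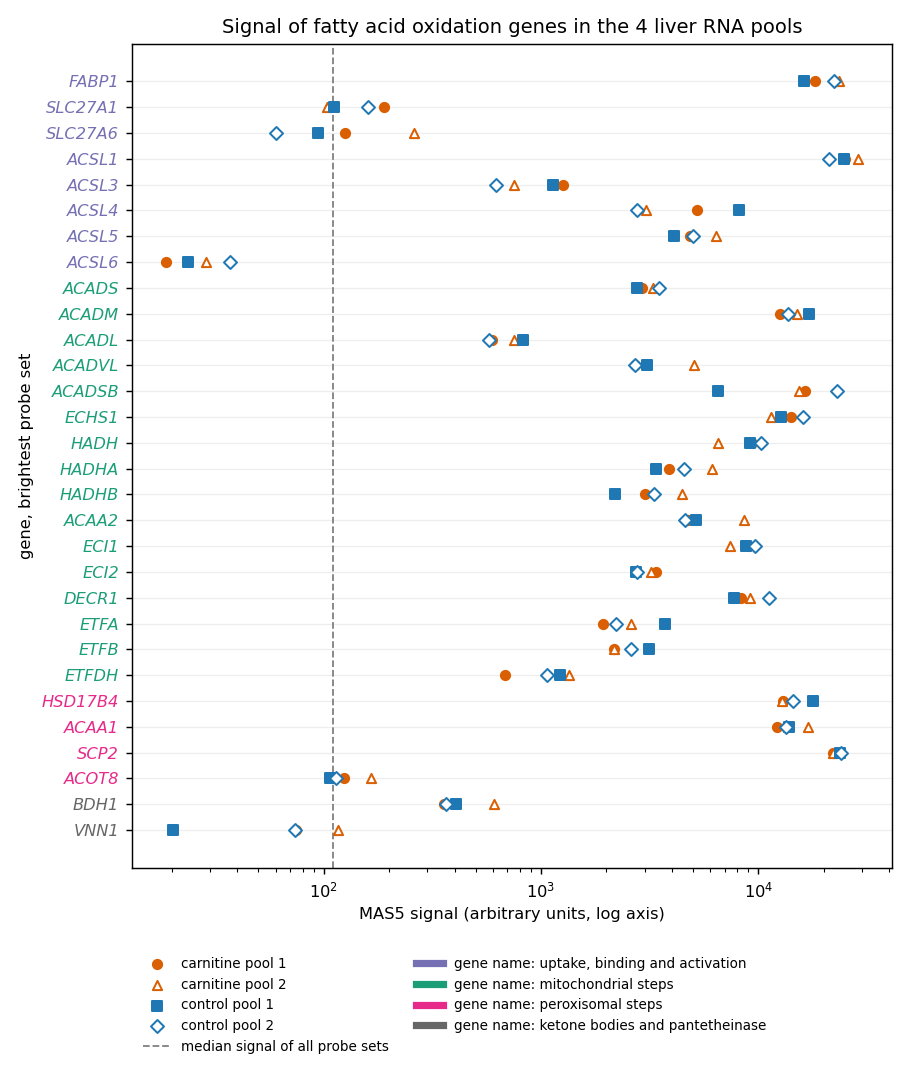
MAS5 signal of 30 genes of fatty acid uptake, activation and oxidation in the 4 pools, drawn on a log axis (arbitrary units), with orange symbols for the carnitine pools, blue symbols for the control pools, gene names coloured by role and a dashed line at 111, the median signal of all probe sets. Symbols are to be compared within a gene, since probe sets differ in how brightly they hybridize, and for most genes the orange and blue symbols overlap.

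Among the genes of uptake, binding and activation, 6 of the 8 measured had a log2 fold change above 0, with a median of 0.16. SLC27A6, which belongs to the fatty acid transport proteins, gave signals of 126 and 259 under carnitine against 93.9 and 60.2 under control. The carnitine pools were both above the control pools, and carnitine pool 2 stood highest. The log2 fold change was 1.26 (SE 0.48, interval 0.14 to 2.39, adjusted p = 0.527 from limma), and these signals lie close to the median of the array. The gene is among those the study selected on these samples, so that its direction here is not independent evidence. SLC27A1, another transport protein of this family, had signals of 189 and 104 against 112 and 159, and its pools overlapped (log2 fold change 0.073, SE 0.42). FABP1, the main fatty acid binding protein of the liver, gave 18185 and 23440.0 under carnitine against 16252 and 22368 under control, and the pool numbered 2 was the brighter in each diet (log2 fold change 0.11, SE 0.24).

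The long-chain acyl-CoA synthetases did not move together. ACSL1, the main long-chain synthetase of hepatocytes, had signals of 25157 and 28754 under carnitine against 24899 and 21139 under control. The pools did not overlap, but carnitine pool 1 and control pool 1 were nearly level, and the log2 fold change was 0.23 (SE 0.21, interval -0.26 to 0.72). ACSL5, a synthetase found on mitochondria and the endoplasmic reticulum, gave 4872 and 6405 against 4098 and 4991 (log2 fold change 0.30, SE 0.22), and its dimmer probe sets gave 0.52 and 0.27. ACSL3, a synthetase of the endoplasmic reticulum and lipid droplets, gave 1262 and 749.8 against 1138 and 622. Pool 1 was the brighter in both diets by more than the diets differed (log2 fold change 0.21, SE 0.36), and this gene too was selected by the study on these samples. The difference in this probe set, the only one annotated to ACSL3 here, was below 2-fold. It need not be the probe set behind the study's selection. The study's qPCR of the single pigs had ACSL3 significantly higher under carnitine. ACSL4, which prefers arachidonate, gave 5214 and 3032 under carnitine against 8123 and 2759 under control. Its control pools were 2.94-fold apart and enclosed both carnitine pools, and the log2 fold change of -0.25 (SE 0.49) has an interval from -1.41 to 0.91. It came to 0.53 when control pool 1 was left out and -1.03 when control pool 2 was. ACSL6, a synthetase of brain and muscle, was dim at 18.8 and 28.8 against 23.7 and 36.9, and its pools overlapped.

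Of the 16 genes of the mitochondrial steps, 6 lay above 0 and 10 below it in log2 fold change, with a median of -0.066. The acyl-CoA dehydrogenases, which open the cycle, are each suited to a chain length. ACADVL, for very long chains, had signals of 2709 and 5058 under carnitine against 3074 and 2721 under control. Carnitine pool 2 stood above the other pools, which were level with each other (log2 fold change 0.36, SE 0.30). ACADM, for medium chains, gave 12588 and 15096 against 17114 and 13679 (-0.15, SE 0.21), ACADL, for long chains, 593 and 755 against 824 and 578 (-0.045, SE 0.26), and ACADS, for short chains, 2917 and 3284 against 2776 and 3486 (-0.0072, SE 0.20). The pools of these genes overlapped, and the interval of ACADS, from -0.48 to 0.46, lies within 2-fold in either direction.

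ACADSB oxidizes short branched-chain acyl-CoA from isoleucine and was selected by the study on these samples. Its brightest probe set had signals of 16334 and 15355 under carnitine against 6536 and 22929 under control. The control pools were 3.51-fold apart and enclosed the carnitine pools, which differed by 1.06-fold. The log2 fold change was 0.37 (SE 0.51, adjusted p = 0.876 from limma), and it came to -0.53 when control pool 1 was left out and 1.28 when control pool 2 was. The dimmer probe set showed the same order of the control pools, with 110.5 in control pool 1 and 518 in control pool 2, against 415 and 689.8 in the carnitine pools (log2 fold change 1.16, SE 0.66). Both probe sets thus had control pool 1 as the lowest of the 4. The dimmer probe set was more than 2-fold higher under carnitine, and the brightest was not. The paper does not name the probe set it selected for ACADSB, and the brightest need not be that one. The study's qPCR of the single pigs also had ACADSB higher under carnitine, short of significance.

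**Figure D2:**
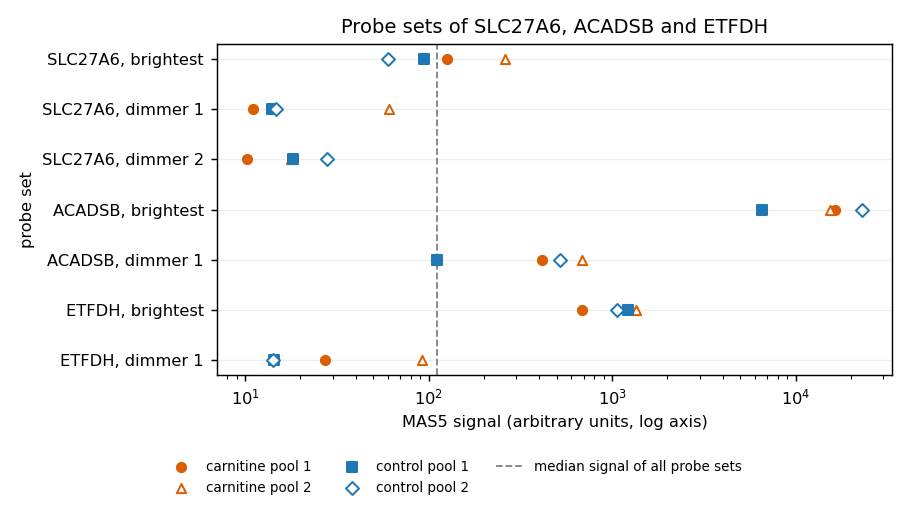
MAS5 signal of each annotated probe set of SLC27A6, ACADSB and ETFDH in the 4 pools, on a log axis in arbitrary units, with orange symbols for the carnitine pools, blue symbols for the control pools and a dashed line at the median signal of all probe sets. Control pool 1 is lowest in both probe sets of ACADSB, and the probe sets of SLC27A6 and of ETFDH differ in the order of the diets.

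Of the later steps of the cycle, HADHA, HADHB and ACAA2 had log2 fold changes above 0. HADHA and HADHB encode the subunits of the mitochondrial trifunctional protein, which carries out hydration, dehydrogenation and thiolysis of long-chain substrates. HADHA gave 3866 and 6159 under carnitine against 3396 and 4535 under control, and HADHB gave 3021 and 4449 against 2180 and 3305. In both genes carnitine pool 2 was the highest and control pool 1 the lowest, and in HADHA and HADHB alike control pool 2 was above carnitine pool 1 (log2 fold changes 0.31, SE 0.27, and 0.45, SE 0.28). The other probe sets of HADHB gave 0.33 and 0.14. ACAA2, a mitochondrial thiolase, gave 4774 and 8612 against 5180 and 4585, again with carnitine pool 2 above the rest (0.40, SE 0.29). Without carnitine pool 2 the log2 fold changes of HADHA, HADHB, ACAA2 and ACADVL were -0.021, 0.17, -0.030 and -0.095, and leaving out carnitine pool 1 gave 0.65, 0.73, 0.82 and 0.81.

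ECHS1 and HADH, also of the later steps, had log2 fold changes below 0. ECHS1, the short-chain enoyl-CoA hydratase, had signals of 14178 and 11481 under carnitine against 12742 and 16091 under control, and HADH, the short-chain hydroxyacyl-CoA dehydrogenase, had 9322 and 6518 against 9155 and 10304. The pools overlapped in both, with carnitine pool 2 the lowest (log2 fold changes -0.17, SE 0.22, and -0.32, SE 0.23). Of the auxiliary enzymes for unsaturated chains, DECR1, a dienoyl-CoA reductase, gave 8346 and 9209 against 7742 and 11189 (-0.086, SE 0.23) and ECI1, an enoyl-CoA isomerase, 9098 and 7401 against 8828 and 9619 (-0.17, SE 0.20). ECI2, an isomerase found in mitochondria and peroxisomes, was the mitochondrial gene with the tightest pools above 0, at 3373 and 3222 under carnitine against 2743 and 2756 under control. The pools of a diet differed by 1.05-fold and 1.01-fold, the diets did not overlap, and the log2 fold change was 0.26 (SE 0.18, interval -0.15 to 0.68, adjusted p = 0.715 from limma). Its dimmer probe set gave 70.9 and 54.1 against 47.9 and 38.4, without overlap and in the same direction.

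The genes of electron transfer were below 0 in their brightest probe sets. ETFB, the beta subunit of the electron transfer flavoprotein, had signals of 2180 and 2170 under carnitine against 3135 and 2588 under control. The carnitine pools were level and below both control pools (log2 fold change -0.39, SE 0.19, interval -0.84 to 0.060, adjusted p = 0.627 from limma). ETFA, the alpha subunit, gave 1937 and 2587 against 3705 and 2222, and its pools overlapped (-0.36, SE 0.28). ETFDH, which passes the electrons on to ubiquinone, gave 682 and 1347 under carnitine against 1220.5 and 1065 under control. The carnitine pools were 1.97-fold apart and enclosed the control pools (-0.25, SE 0.33). Its dim probe set pointed the other way, with 27.1 and 92.7 against 14.4 and 14.1 and a log2 fold change of 1.82 (SE 0.77, adjusted p = 0.578 from limma), at signals below the median of the array.

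**Figure D3:**
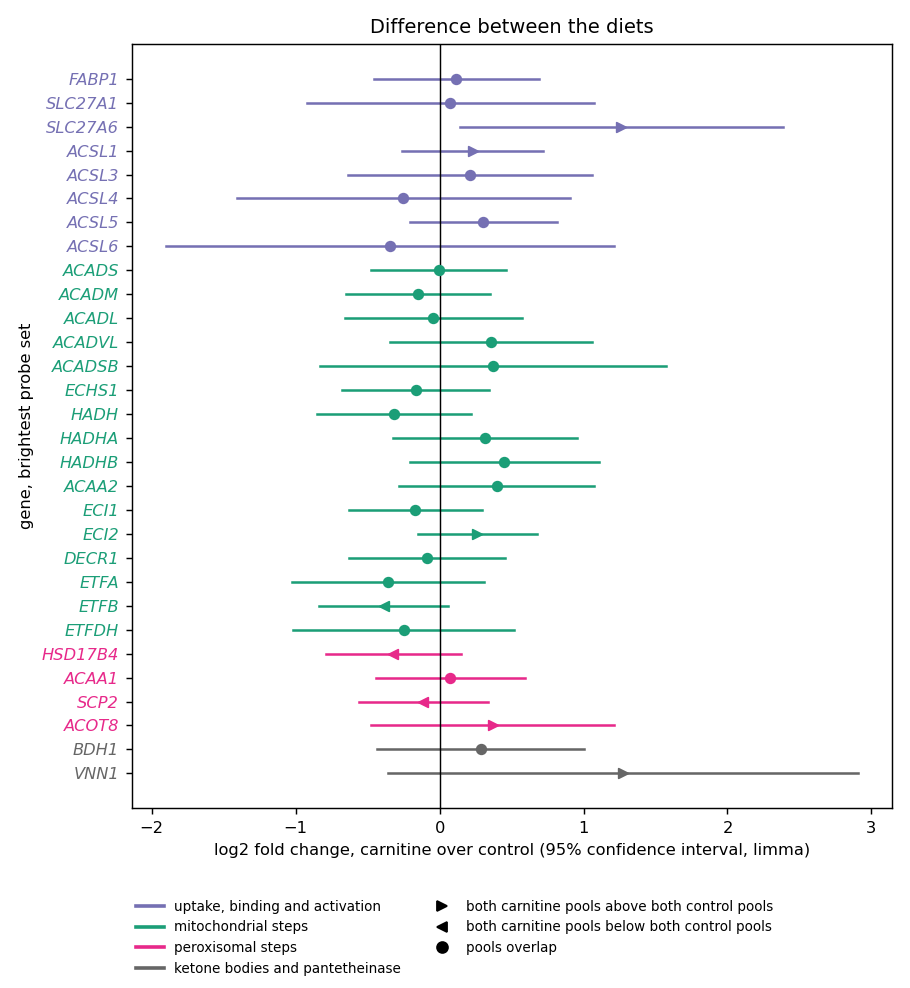
Log2 fold change of carnitine over control for the brightest probe set of each of 30 genes, with lines for the 95% confidence interval from limma, colours for the role of the gene, right-pointing and left-pointing triangles where both carnitine pools lie above or below both control pools, and circles where the pools overlap. The interval of SLC27A6, from 0.14 to 2.39, is the one that does not cross 0.

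The peroxisomal genes had a median log2 fold change of -0.019, with 2 above and 2 below 0, and of 0.11 after quantile normalization. HSD17B4, the bifunctional enzyme of peroxisomal oxidation of branched and very long chains, had signals of 12955 and 12869 under carnitine against 17898 and 14526 under control. The carnitine pools were level and below both control pools (log2 fold change -0.32, SE 0.20, interval -0.79 to 0.15), and after quantile normalization they overlapped with the control pools. SCP2, whose locus encodes the thiolase of that branch and a lipid carrier protein, gave 22023 and 22139 against 23677 and 24071. The pools of each diet were within 1.02-fold of each other and the diets were apart, but the difference was small (-0.11, SE 0.19) and its sign turned to 0.029 after quantile normalization. ACAA1, the peroxisomal thiolase for straight chains, gave 12202 and 16876 against 13828 and 13431, and its pools overlapped (0.074, SE 0.22). ACOT8, a peroxisomal acyl-CoA thioesterase, gave 124 and 164 against 107 and 114, with both carnitine pools above both control pools at signals near the median of the array (0.37, SE 0.36).

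Outside the oxidation cycles, BDH1, the mitochondrial enzyme that interconverts the ketone bodies acetoacetate and beta-hydroxybutyrate, had signals of 359.6 and 609.8 under carnitine against 405 and 364 under control. Carnitine pool 2 stood above the other pools, which were nearly level (log2 fold change 0.29, SE 0.31). VNN1, a pantetheinase that releases the precursor of coenzyme A and a known target of PPARA, gave 74.2 and 117 against 20.2 and 73.4. Carnitine pool 1 and control pool 2 were level, and control pool 1 was far below the rest. The log2 fold change of 1.27 (SE 0.69, interval -0.36 to 2.91, adjusted p = 0.667 from limma) was 0.34 without control pool 1, and the mean signal lies below the median of the array.

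Carnitine pool 2 was above carnitine pool 1 for 20 of the 30 genes (66.7%), with a median log2 difference of 0.31, against 52.5% of all probe sets with a median of 0.031. It was the highest of the 4 pools for 13 genes (43.3%), against 26.9% of all probe sets and 28.4% of the brightest probe sets above the median signal. These 13 were FABP1, SLC27A6, ACSL1, ACSL5, ACADVL, HADHA, HADHB, ACAA2, ETFDH, ACAA1, ACOT8, BDH1 and VNN1. Carnitine pool 2 was the lowest for SLC27A1, ETFB, HSD17B4, ECHS1, ECI1 and HADH, 6 of the 30 (20%), against 24.8% of all probe sets. Between the control pools the median log2 difference was 0.015, and control pool 1 was the lowest of the 4 for 10 genes (33.3%), against 25.3% of all probe sets. Without carnitine pool 2 the median log2 fold change of the 30 genes was -0.045, and without carnitine pool 1 it was 0.18. For the mitochondrial genes the median was -0.076 without carnitine pool 2, and leaving out carnitine pool 1 gave 0.10 and control pool 2 0.079. The peroxisomal median came to 0.0998 when carnitine pool 1 was left out and to -0.14 when carnitine pool 2 was.

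**Figure D4:**
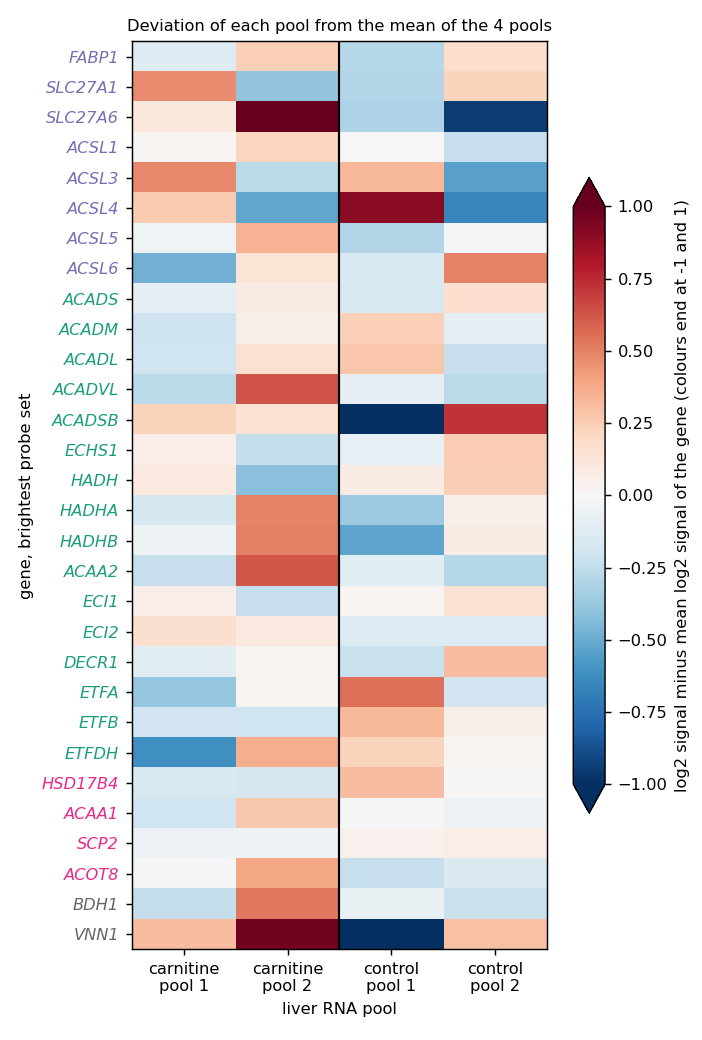
Log2 signal of each pool minus the mean log2 signal of the gene over the 4 pools, for the brightest probe set of 30 genes, with red above and blue below the mean and colours that end at -1 and 1. The column of carnitine pool 2 is reddest for SLC27A6, VNN1, ACADVL, ACAA2, BDH1, HADHB and HADHA, and bluest for ACSL4, HADH and SLC27A1. The columns of the control pools differ for ACADSB, ACSL4 and VNN1.

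Of the 9 genes with several probe sets, 5 had all of them on the same side of 0, namely ACSL5, ACADSB, HADHB, ECI2 and BDH1. In the other 4 genes the sign differed between probe sets. The dimmer probe sets of SLC27A6 gave 11.04 and 61.1 under carnitine against 14.1 and 14.7 under control (log2 fold change 0.85, SE 0.94) and 10.3 and 17.8 against 18.1 and 28.01 (-0.74, SE 0.75). The dimmer probe sets of ACADVL (12.7 and 6.73 against 17.5 and 6.22) and ACSL6 (1.66 and 22.03 against 3.09 and 11.1) had log2 fold changes of -0.17 (SE 0.94) and 0.042 (SE 1.43). Averaged over its probe sets, ETFDH had a log2 fold change of 0.78 and SLC27A6 of 0.46.

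Around these genes, 8 further lists covered the rest of the pathway, and 0 of their genes passed the adjusted p in limma. In the carnitine shuttle, 0 of 6 genes passed an unadjusted p under 0.05, with CPT1A, the entry enzyme of mitochondrial oxidation, at 3345 and 5294 under carnitine against 3002 and 2878 under control, and SLC25A20, the inner membrane carrier, at 1311 and 1982 against 1135 and 1107. In both, the carnitine pools lay above the control pools, with log2 fold changes of 0.52 (SE 0.25) and 0.52 (SE 0.24). Carnitine pool 2 stood highest, as it did in ACADVL and ACAA2, whose diets overlapped. CPT1B, the muscle form, was dim and had a log2 fold change of -1.08 (SE 0.65).

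A further list of acyl-CoA metabolism, largely mitochondrial and in many cases for amino acid carbon, counted 13 genes. Of these, 2 passed an unadjusted p under 0.05, in opposite directions. At that p, 6.56% of the brightest probe sets of all genes were higher and 3.99% lower. IVD, which oxidizes isovaleryl-CoA from leucine, had signals of 1737 and 1781 under carnitine against 2473 and 2873 under control (log2 fold change -0.60, SE 0.19, adjusted p = 0.458 from limma). ACAD8, which oxidizes isobutyryl-CoA from valine, gave 2199 and 2027 against 1739 and 1027 (0.66, SE 0.27), and ECHDC1, an ethylmalonyl-CoA decarboxylase, had a log2 fold change of -0.65 (SE 0.29). The dehydrogenases of the branched-chain amino acids thus lay on both sides of 0.

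None of the 9 further genes of peroxisomal oxidation reached an unadjusted p under 0.05, nor did any of 9 genes of peroxisome biogenesis. ABCD3, a transporter of acyl-CoA into peroxisomes, gave 5496 and 9986 under carnitine against 3418 and 5455 under control (log2 fold change 0.78, SE 0.34, adjusted p = 0.586 from limma). HSDL2, a peroxisomal dehydrogenase-like protein, had 0.42 (SE 0.28) and ACOX2, the branched-chain acyl-CoA oxidase, -0.26 (SE 0.18). PEX14, which docks the import receptors at the peroxisome membrane, gave 604 and 548 against 757 and 768 (-0.41, SE 0.21), while PEX7, an import receptor, had -0.60 (SE 0.41) and PEX16, a membrane assembly factor, 0.24 (SE 0.19). Of the ketone body genes listed, BDH2 and OXCT1 were measured, with log2 fold changes of 0.041 (SE 0.19) and -0.078 (SE 0.59).

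Of 13 further genes of fatty acid binding and activation, 2 passed an unadjusted p under 0.05, and both were lower. At that p, 3.99% of the brightest probe sets of all genes were lower. FABP3, the heart-type binding protein, had signals of 300 and 268 under carnitine against 521 and 502 under control (log2 fold change -0.85, SE 0.24, adjusted p = 0.421 from limma). ACBD5, an acyl-CoA binding protein of the peroxisome membrane, gave 4074 and 4019 against 5672 and 6732 (-0.61, SE 0.19, adjusted p = 0.450). In both genes the pools of each diet lay close together and the diets were apart. ACSBG1, a very-long-chain synthetase, was dim, at 46.1 and 43.2 against 12.5 and 23.9.

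Among genes of these 8 lists with signals above the median, the largest differences lay among the regulators and targets of PPARA. Among 23 genes of PPARA, its partners and energy sensors, 1 passed an unadjusted p under 0.05, and it was higher. That gene was PPRC1, a coactivator related to PPARGC1A, with 989.9 and 879 under carnitine against 184 and 175 under control (log2 fold change 2.38, SE 0.23, adjusted p = 0.102 from limma). PPARGC1A itself, the coactivator that raises mitochondrial and oxidative genes in fasting, gave 207 and 157 against 315 and 267 (-0.69, SE 0.30), and PRKAG2, a subunit of AMP-activated kinase, 238 and 256 against 369.6 and 369 (-0.58, SE 0.25). PPARA itself was dim, at 1.61 and 15.6 under carnitine against 4.75 and 3.92 under control (0.22, SE 1.30). Among 15 targets of PPARA with other roles, 5 passed an unadjusted p under 0.05, 2 of them higher and 3 lower. At that p, 6.56% of the brightest probe sets of all genes were higher and 3.99% lower. The lists were chosen with earlier results of these data known. ANGPTL4, an inhibitor of lipoprotein lipase, gave 1892 and 2726 against 348 and 1299.8 (log2 fold change 1.76, SE 0.55, adjusted p = 0.460 from limma), and PLIN2, a lipid droplet coat protein named here after its values were seen, had 405 and 2121 against 196 and 336. PDK4, the kinase that restrains pyruvate oxidation, gave 3386 and 1744 against 4711 and 6327 (-1.17, SE 0.33, adjusted p = 0.421), and PNPLA2, the triglyceride lipase of lipid droplets, gave 996 and 1215 against 2592 and 3014 (-1.34, SE 0.20, adjusted p = 0.208). TXNIP, also named after its values were seen, gave 7114 and 6264 against 9059 and 19563 (-0.996, SE 0.35). These genes were named for their small p or after their values were seen, and over all 15 targets the log2 fold changes ran from -1.34 to 1.85 with a median of -0.18, with HILPDA at 0.052, ME1 at 0.044 and FADS2 at -0.067. In the brightest probe set of each gene, those of the mitochondrial steps ran from -0.39 to 0.45 and those of the peroxisomal steps from -0.32 to 0.37.

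**Figure D5:**
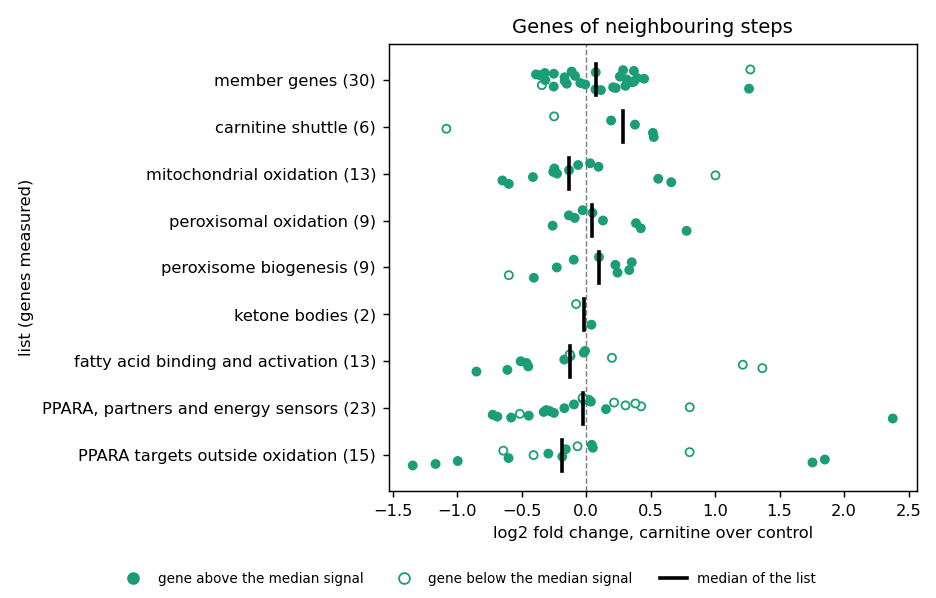
Log2 fold change of carnitine over control for the 30 genes of fatty acid uptake, activation and oxidation and for 8 lists of neighbouring genes, with a filled circle for a gene above the median signal, an open circle for a dimmer gene and a black line at the median of the list. SLC27A6 at 1.26 and VNN1 at 1.27 lie apart from the other 28 of the 30 genes, and the points farthest from 0 above the median signal lie among the partners and targets of PPARA, with PPRC1 at 2.38 and PNPLA2 at -1.34.

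The arrays were alike in overall brightness, with median signals from 109 to 114, and 14 hepatocyte markers were bright on each of them, all above the median. Albumin gave 45232 and 39815 under carnitine against 49289 and 45404 under control. Of these 14 markers, 12 had log2 fold changes below 0, with a median of -0.12. Both carnitine pools lay below both control pools for 6 of them and above for 2, ARG1 and CPS1. Among the brightest probe sets of all genes those shares were 21% and 21.5%. In such pooled tissue, fewer cells of a type and less RNA per cell cannot be told apart. The summed signal of 10 stellate cell and fibroblast markers was between 5066 and 5566 in 3 pools and 13301 in control pool 2, and that of 6 cholangiocyte markers between 2336 and 3462 in 3 pools and 8436 in control pool 2. Most of the cholangiocyte sum in control pool 2 came from SPP1, at 6231. SPP1, EPCAM and KRT19 were highest in that pool, and CLDN4, CFTR and SOX9 were not. The brightest probe sets of ACSL4, ACADSB and VNN1 had control pools that differed by over 2-fold. Of these, ACSL4 was lower in control pool 2 than in control pool 1, and ACADSB and VNN1 were higher. The part of other cell types in those values was not tested. The summed signal of 3 erythroid markers was 771 and 574 against 1026.8 and 1362, and that of 7 muscle markers, all below the median of the array, 149.6 and 132 against 214 and 178. These sums were lower in both carnitine pools, although HBB of the erythroid list was not, at 309.7 and 299 against 278 and 301. MYH7 of the muscle list was higher in both carnitine pools, at 51.4 and 30.9 against 22.3 and 11.7. The summed signal of 6 adipocyte markers was higher in both, at 6564 and 8096 against 3337 and 5323. Most of it came from GPD1, a gene that the study selected on these samples. The other 5 markers had log2 fold changes below 0. Of these, LEP, ADIPOQ and LPL were below the median of the array and lower in both carnitine pools. The part of these cell types in the differences between the diets was not tested. The ratio of 3' to 5' signal of the GAPDH control was 18.7 and 16.1 on the carnitine arrays against 12.5 and 11.6 on the control arrays, and that of the actin control 157 and 136 against 91.2 and 86.7. For the EF1A control it was 23.4 and 29.6 against 57.9 and 18.2, and the arrays of the diets overlapped. The part of these ratios in the differences between the diets was not tested.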

How the data were processed

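Total RNA of pig liver was measured on 4 single-colour Affymetrix porcine GeneChips, with 2 pools of 4 pigs per diet. The values the authors deposited are linear MAS5 intensities. MAS5 5.0, Affymetrix Expression Console 1.1 and GCOS 1.1.2 are named in the submitters' processing notes. MAS5 subtracts background, combines probe pairs into 1 value per probe set and scales arrays to a common level, so that dim signals vary most. Detection calls were not used here. Precision is limited by the number of arrays, with 2 residual degrees of freedom per probe set.

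The intensities were log2-transformed without a pseudocount or a filter. After 124 control probe sets were left out, 23999 were fitted with limma 3.58.1 in R 4.3.3, with diet as the only factor and a variance trend, two-sided, and p-values were adjusted over all of them by the Benjamini-Hochberg method at 0.05. The annotation of the array, whose symbols can be old, gives 1 symbol for 10069 probe sets, several for 198 and none for 13732, and the gene table changed 0 of them. It names no genome build, so coordinates were left out. The pools are numbered as biological replicates in the labels.

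The 38 members and the lists were chosen with earlier results of these data known. Every member with a probe set is named, with its values in all pools, and from each other list up to 3 genes with the smallest p. Outside that rule, PPARA, PLIN2, TXNIP, HILPDA, ME1 and FADS2 are named as well. Grouping the mitochondrial steps by chain length followed after the values were seen. Lists of markers of 10 cell types were read as levels, among them T and NK cells, B cells, Kupffer cells, endothelial cells, adipocytes, muscle and erythroid cells. Alternatives were quantile normalization, median centring, a floor at the 25th percentile, an offset of 64, a filter at the median signal, no or a robust variance trend, the one-factor analysis of variance that the methods name, a replicate block, leaving out each pool, the mean over probe sets and arithmetic means. No protein, promoter or probe sequences were used here.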

Additional observations from a re-analysis of the deposited data

How the results depend on the processing

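No gene of the list passed the adjusted p in limma under any alternative or without any pool. At an unadjusted p under 0.05, 1 was higher in the fit as reported, 0 without a variance trend and 0 with the mean over probe sets, and the one-factor analysis of variance called ECI2 higher and 1 lower, SCP2, in place of SLC27A6. Leaving out a pool gave from 0 to 3 higher and from 0 to 3 lower, and without control pool 2 ACADSB had an unadjusted p of 0.000505 (adjusted p = 0.129 from limma). With 1 pool left in a diet, that pool was assumed to vary like the other diet's. Both carnitine pools lay below both control pools for 1 gene, ETFB, after quantile normalization, and the peroxisomal median moved to 0.11. The cause was not tested. Without a pool, fewer samples can overlap, and the counts of genes apart ranged from 7 to 14 above and from 7 to 10 below. The same counts over all probe sets were not made, so these have no background. The medians ranged from -0.045 to 0.18 for all genes, from 0.13 to 0.26 for uptake and activation, from -0.076 to 0.10 for mitochondrial steps and from -0.14 to 0.0998 for peroxisomal steps.

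The pool numbers do not pair the samples: deviations of same-numbered pools correlated at r = 0.0032 across 11999 probe sets, which are not independent replicates. With the replicate block 0 members passed the adjusted p, and SLC27A6 had an adjusted p of 0.419. PPRC1, PNPLA2 and ANGPTL4 passed with it (adjusted p = 0.00232, 0.0153 and 0.0172 from limma). In the fit as reported they had 0.102, 0.208 and 0.460. PPRC1 also passed with the filter at the median signal (0.0426). The share of all probe sets that passed in these 2 settings was not counted here, so these calls have no background beside them.

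Signs turned for SCP2 after quantile normalization (0.029), ACADS after median centring (0.031) and ETFDH as a mean over probe sets (0.78). Without 1 pool, the log2 fold change ranged from -0.12 to 0.35 for FABP1, from -0.36 to 0.51 for SLC27A1, from -0.23 to 0.64 for ACSL3, from -1.03 to 0.53 for ACSL4, from -0.17 to 0.16 for ACADS, from -0.31 to 0.011 for ACADM, from -0.30 to 0.21 for ACADL, from -0.095 to 0.81 for ACADVL, from -0.53 to 1.28 for ACADSB, from -0.33 to 0.0018 for ECHS1, from -0.021 to 0.65 for HADHA, from -0.030 to 0.82 for ACAA2, from -0.35 to 0.18 for DECR1, from -0.73 to 0.011 for ETFA, from -0.74 to 0.24 for ETFDH, from -0.16 to 0.31 for ACAA1, from -0.094 to 0.67 for BDH1, from -0.38 to 2.09 for a dimmer probe set of SLC27A6, from -0.070 to 0.15 for BDH2 and from -0.60 to 0.45 for OXCT1.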
